A study of Homo sapiens with 6 samples.

Results

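Integrins are adhesion receptors built from 1 alpha and 1 beta subunit, and laminins are the cross-shaped proteins of the basement membrane, each assembled from an alpha, a beta and a gamma chain. A total of 34 genes for these subunits and chains were examined, 24 integrin subunits and 10 laminin chains, among 26822 gene symbols in the table. They were looked up by exact symbol, and all 34 were found. MCF10A is an established, non-tumorigenic line of human breast epithelial cells. The cells carried 30 nM of a non-targeting siRNA (siNT) or of siRNAs targeting PAX9 (siPAX9), a paired-box transcription factor, for 72 hours, with 3 samples in each group. Both groups were grown in the same medium with horse serum, epidermal growth factor, hydrocortisone, cholera toxin and insulin, and the knockdown was transient and made in a single cell line. Levels are FPKM, fragments scaled to transcript length and to the mapped reads of the library, so that genes of different length can be compared.

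The authors' table gives 1 combined FPKM per group and no value per sample. Error between replicates could therefore not be computed, and no new test over samples was possible. The authors' own test results were not used, and the table does not carry the depth behind each value. Differences are therefore given as both values, their fold and the log2 of siPAX9 over siNT, with no p-value. Of the 26822 symbols, 13264 had a mean FPKM of at least 1 over both groups, the minimum used for all counts, and their median log2 ratio was -0.07. PAX9 itself was at 2.80 in siNT and 0.325 in siPAX9, in a locus that 4 rows share. Of its exonic bases, 25.4% are shared with SLC25A21 on the opposite strand. Of the 6 markers of basal epithelial cells, 4 were higher in siPAX9 and 2 lower, all within 2-fold; the keratin KRT5 was at 1558 in siNT and 1807 in siPAX9, and the transcription factor TP63 at 35.4 and 25.3. Because the RNA is from whole cultures, fewer cells of a type and less RNA per cell cannot be told apart.

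In stratified and glandular epithelium, basal cells hold on to the basement membrane through hemidesmosomes. There the integrin pair α6β4 binds a laminin that holds the chains LAMA3 and LAMB3 and links it to keratin filaments. Integrins with the β1 subunit bind laminin, collagen or fibronectin according to their alpha partner, and those with αV bind ligands that carry the RGD motif, among them the latent form of TGF-β. A further group of subunits belongs to leukocytes.

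The shares of integrin and laminin genes past 1.5-fold lay near those of all genes. Of the 34 genes, 21 had a mean FPKM of at least 1, and 15 of these (71.4%) differed by less than 1.5-fold, against 69.6% of all symbols past the same minimum. Only ITGA10 was at least 2-fold lower in siPAX9, 1 of 21 genes (4.76%) against 6.90% of all symbols, and 0 were at least 2-fold higher, against 6.82%. At 1.5-fold, 3 genes were lower (ITGA10, ITGB5 and LAMB1), or 14.3% against 16.7% of all symbols, and 3 were higher (ITGB2, LAMB2 and LAMA1), or 14.3% against 13.7%. LAMA1 was no longer past 1.5-fold once 1 was added to each FPKM, at a log2 ratio of 0.48. The median log2 ratio of the 21 genes was 0.18, with 12 genes above 0 (57.1%, against 44.7% of all symbols past the minimum) and 9 below. By family the median was 0.03 for the 8 alpha subunits, 0.03 for the 6 beta subunits and 0.42 for the 7 laminin chains. With rows of a single symbol the alpha median was -0.17, the beta median -0.16 and the median of all 0.03, and the beta median was also -0.16 with a minimum of 5. The summed FPKM of the 34 genes was 1277 in siNT and 1280 in siPAX9.

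**Figure D1:**
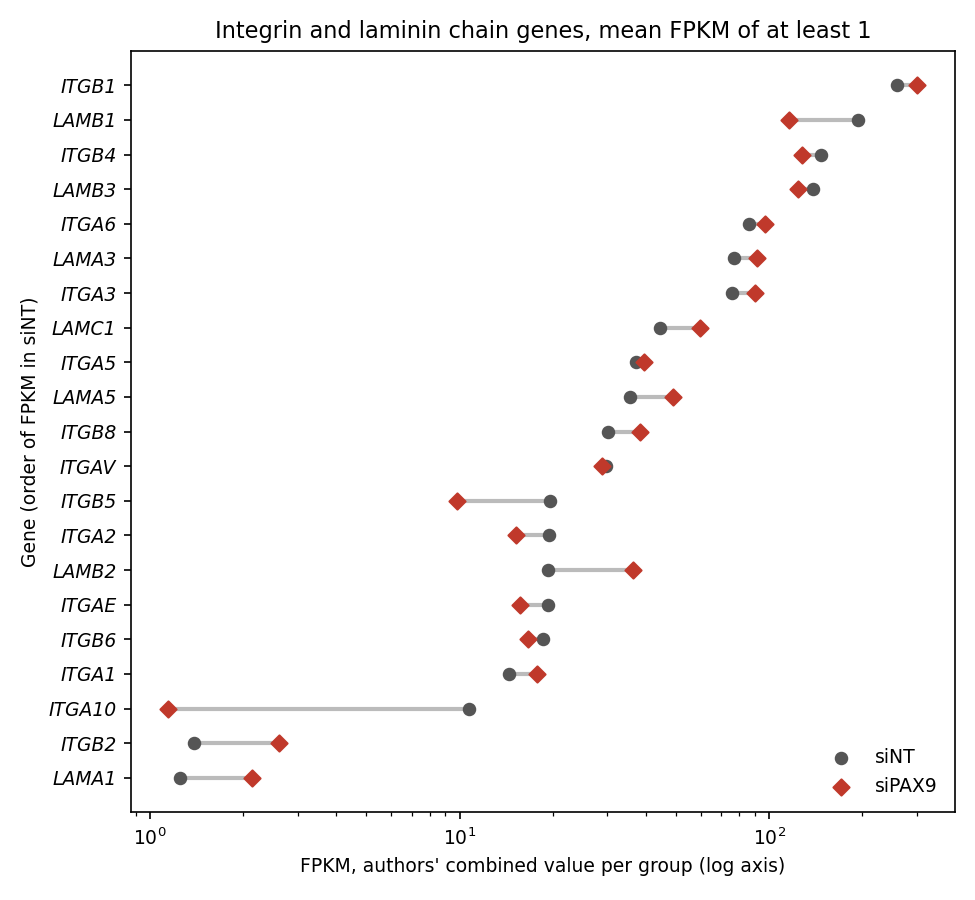
FPKM of the 21 integrin and laminin chain genes with a mean FPKM of at least 1, on a log axis, ordered by the siNT value; grey circles are siNT, red diamonds siPAX9, each the authors' combined value of 3 samples, with no error available. ITGB1 stands highest in both groups, and the longest line is that of ITGA10, from 10.8 in siNT to 1.15 in siPAX9.

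The order of the levels was largely kept. ITGB1, which encodes the β1 subunit shared by most epithelial integrins (chromosome 10, 33189246 to 33247293 on hg19), had the highest FPKM of the 21 genes in both groups, 258 in siNT and 301 in siPAX9. Its row also carries SNORA86, a small RNA gene, so the value is that of the joint locus. In siNT it was followed by LAMB1, ITGB4 and LAMB3, and in siPAX9 by ITGB4, LAMB3 and LAMB1. The largest move in rank was 5 places, by ITGB5, from place 13 to place 18.

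Among the laminin-binding integrins, none was 1.5-fold apart between the groups. ITGA6, the α6 subunit of hemidesmosomes, was at 85.8 in siNT and 96.9 in siPAX9. Its partner ITGB4 (chromosome 17, 73717408 to 73753899) was at 147 in siNT and 128 in siPAX9. The FPKM of ITGB4 over that of ITGA6 was 1.71 in siNT and 1.32 in siPAX9. ITGA3, which pairs with β1 to bind laminin, was at 75.7 in siNT and 90.0 in siPAX9, in a row shared with its neighbour PDK2. ITGA7, a subunit of muscle, was at 0.159 in siNT and 0.133 in siPAX9.

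The collagen-binding alpha subunits differed among themselves. ITGA1 was at 14.4 in siNT and 17.8 in siPAX9, a log2 ratio of 0.30, in a row shared with PELO. ITGA2, whose locus begins 32903 bases after that of ITGA1 on chromosome 5, was at 19.4 in siNT and 15.2 in siPAX9, a log2 ratio of -0.36. The rows of these neighbours thus moved in opposite directions, each by less than 1.5-fold. The part of PELO in the ITGA1 row was not tested. ITGA10, the α10 subunit, best known from cartilage, was at 10.8 in siNT and 1.15 in siPAX9, which is 9.39-fold lower or a log2 ratio of -3.23. Adding 1 to both values brought this ratio to -2.45. The table gives ITGA10 the locus 144146811 to 146467744 on chromosome 1, a stretch of 2320934 bases that 28 rows share. The gene itself spans 145524969 to 145543868 in the GENCODE annotation of the same assembly, and 1.95% of its exonic bases also lie in exons of another gene. Of the 27 other rows with that locus, 19 had a mean FPKM of at least 1, and their log2 ratios ran from -1.04 to 1.44 with a median of -0.15, so ITGA10 lay outside their range. How reads were divided within so wide a locus was not tested. ITGA11 was under the minimum in both groups.

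Among the RGD-binding integrins past the minimum, ITGB5 was the only one 1.5-fold apart between the groups. ITGAV was at 29.6 in siNT and 28.8 in siPAX9. ITGA5, the α5 subunit of the classical fibronectin receptor, was at 37.1 in siNT and 39.4 in siPAX9. ITGB6, the epithelial β6 subunit that activates latent TGF-β, was at 18.6 in siNT and 16.6 in siPAX9, with 16.7% of its exonic bases shared with another annotated gene. These 3 genes were within 1.5-fold. ITGB8, another activator of latent TGF-β, was at 30.2 in siNT and 38.2 in siPAX9, a log2 ratio of 0.34. ITGB5, the β5 subunit of the vitronectin receptor (chromosome 3, 124480795 to 124606152), was at 19.6 in siNT and 9.80 in siPAX9, 1.997-fold lower and so just short of the 2-fold threshold. No exonic base of ITGB5 is shared with another annotated gene. Of the summed FPKM of the αV partners β3, β5, β6 and β8, ITGB5 made up 28.6% in siNT and 15.2% in siPAX9, and ITGB8 made up 44.1% and 59.1%. ITGB8 over ITGB5 was 1.54 in siNT and 3.89 in siPAX9, while the sum of these partners was 68.4 and 64.6.

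**Figure D2:**
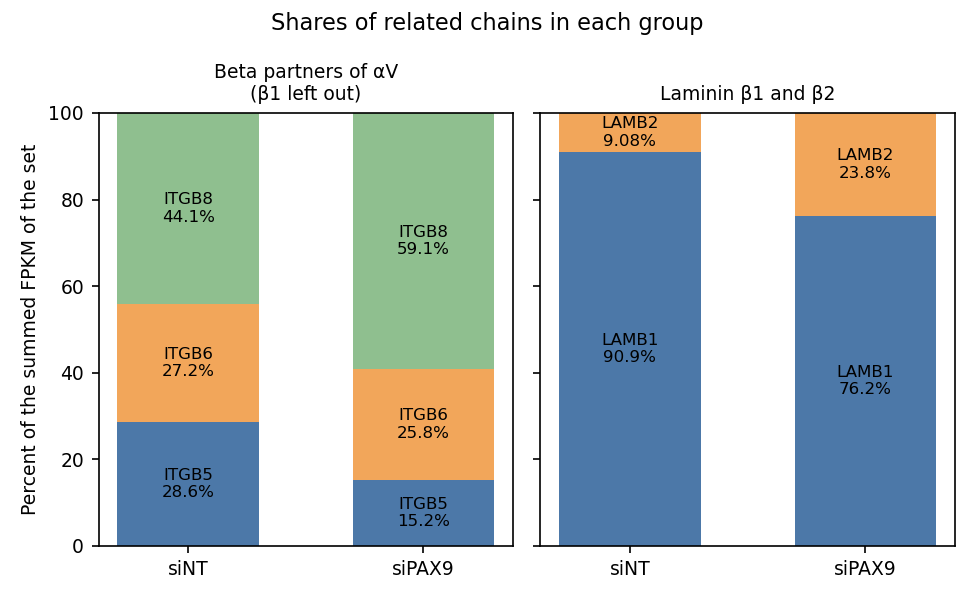
Shares of the summed FPKM (percent, stacked from 0) that related chains made up in siNT and siPAX9, for the beta partners of αV and the laminin β1 and β2 chains; genes with shares under 0.1% are not drawn, and no error is available. ITGB5 and LAMB1 take smaller shares in siPAX9 than in siNT, and LAMB2 goes from 9.08% to 23.8%.

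The subunits of leukocytes were low, apart from ITGAE. ITGAE, the αE subunit that binds E-cadherin, was at 19.3 in siNT and 15.6 in siPAX9, and a second row of the same symbol was at 0.286 and 0.270. Its only known partner, ITGB7, was at 0.117 and 0.571, under the minimum, so that ITGAE had the higher FPKM of the pair in both groups. For ITGB7, 42.3% of the exonic bases are shared with ZNF740 on the opposite strand. The HASPIN gene, listed as GSG2 at 4.68 in siNT and 2.35 in siPAX9, lies within ITGAE, and 7.65% of the exonic bases of ITGAE are shared with genes on the opposite strand. Whether the libraries kept strand is not given in the sources used here. ITGB2, the common beta subunit of leukocytes, was at 1.38 in siNT and 2.61 in siPAX9, 1.88-fold higher, and its antisense gene ITGB2-AS1 was at 0.955 and 1.40. Its alpha partners ITGAM, ITGAL and ITGAX were all under the minimum. The leukocyte marker PTPRC was at 0.0166 in siNT and 0.0922 in siPAX9, and CD3E and CD3D were listed at 0 in both groups. The summed FPKM of the 7 leukocyte markers was 18.5 in siNT and 65.1 in siPAX9, mostly from CD14, at 14.4 and 56.5. CSF1R, a receptor of macrophages and also past the minimum, was at 0.699 and 4.69, 6.71-fold higher, and CD68, the third past it, was at 3.38 and 3.77. The part of these in the ITGB2 value was not tested.

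The laminin chains had a median absolute log2 ratio of 0.46, against 0.28 for the 14 integrin subunits and 0.35 for all symbols past the minimum. Of the alpha chains, LAMA3, the chain of the hemidesmosomal laminin, was at 76.9 in siNT and 91.3 in siPAX9. LAMA5, the alpha chain of most other epithelial laminin, was at 35.6 and 48.8, 1.37-fold higher. LAMA1, an embryonic chain, was at 1.25 and 2.13, or 1.70-fold higher at a low level, with 11.1% of its exonic bases shared with genes on the opposite strand. LAMA3 made up 67.6% of the summed FPKM of the 5 alpha chains in siNT and 64.1% in siPAX9.

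The beta chains moved apart. LAMB1 (chromosome 7, 107564065 to 107643804), the second highest of the 21 genes in siNT, was at 193 in siNT and 116 in siPAX9, 1.67-fold lower. LAMB2 (chromosome 3, 49158542 to 49170599), which takes the place of β1 in other laminins, was at 19.3 in siNT and 36.2 in siPAX9, 1.88-fold higher. LAMB1 over LAMB2 was therefore 10.0 in siNT and 3.20 in siPAX9. LAMB2 shares no exonic bases with another annotated gene and LAMB1 shares 2.60%. LAMB3, the beta chain of the hemidesmosomal laminin, was at 139 in siNT and 124 in siPAX9.

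**Figure D3:**
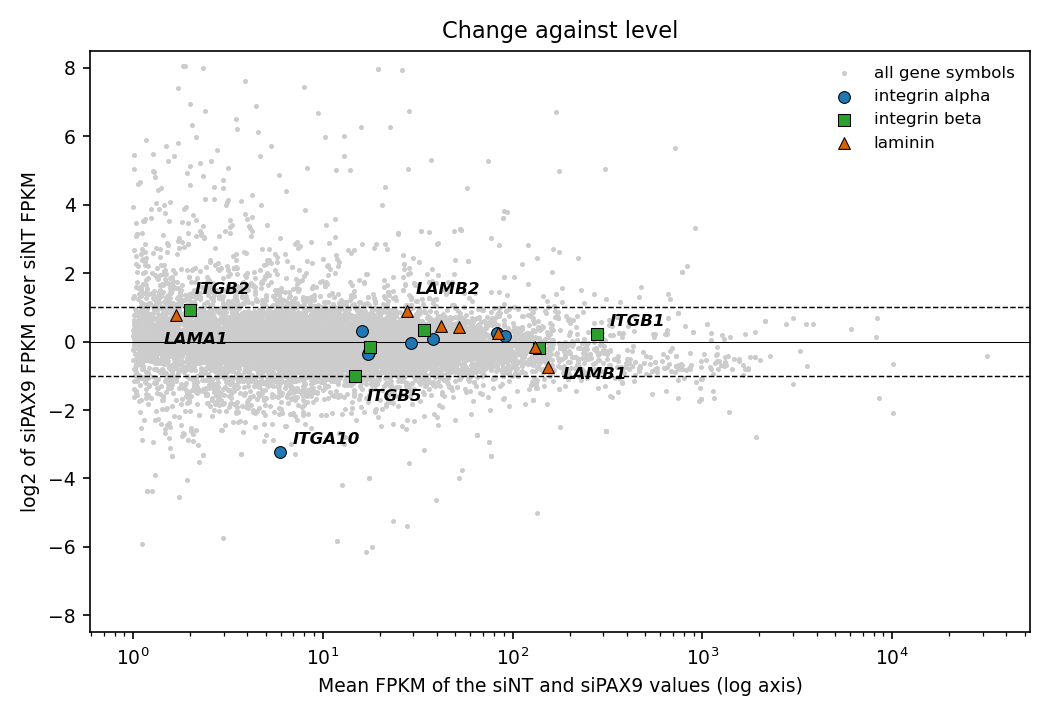
The log2 ratio of siPAX9 over siNT (vertical axis) against the mean FPKM of both groups (horizontal axis, log scale) for all gene symbols with a mean FPKM of at least 1 (grey) and for integrin alpha, integrin beta and laminin genes (coloured); dashed lines mark 2-fold, 119 symbols listed at 0 in 1 group have no ratio and 6 lie outside the axis. ITGA10 is the only coloured point past a dashed line, with ITGB5 just inside it.

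Of the gamma chains, LAMC1 was at 44.4 in siNT and 59.6 in siPAX9, 1.34-fold higher, and LAMC3 was listed at 0 in siNT and at 0.0105 in siPAX9. LAMB1 over LAMC1 was 4.35 in siNT and 1.94 in siPAX9.

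Because LAMB1 and LAMB2 moved in opposite directions, the 250 bases before the start site of each are shown, from RefSeq on GRCh38.p14. Capitals mark the GC box GGGCGG on either strand, a sequence that SP1-type factors bind; overlapping matches run together.
LAMB1, minus strand, chr7:108003162-108003411: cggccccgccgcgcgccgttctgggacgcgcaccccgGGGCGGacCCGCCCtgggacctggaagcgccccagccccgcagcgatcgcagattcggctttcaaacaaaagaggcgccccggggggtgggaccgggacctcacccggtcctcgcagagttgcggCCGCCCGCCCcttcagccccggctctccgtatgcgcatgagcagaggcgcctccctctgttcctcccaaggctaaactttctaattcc
LAMB2, minus strand, chr3:49133051-49133300: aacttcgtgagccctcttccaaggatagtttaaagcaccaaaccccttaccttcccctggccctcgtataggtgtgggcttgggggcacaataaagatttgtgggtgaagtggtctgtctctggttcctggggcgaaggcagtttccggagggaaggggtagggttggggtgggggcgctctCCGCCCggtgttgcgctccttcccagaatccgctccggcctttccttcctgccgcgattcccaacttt
The LAMB1 stretch held 4 GC boxes and was 70.4% G and C, and the LAMB2 stretch held 1 and was 58.4% G and C. Start sites were matched for 24 of the 34 genes, with 31 windows of 250 bases before and 50 after the start. A GC box was in 19 of the 31 windows (61.3%), against 45.0% of all 35116 windows, whether or not their genes passed the minimum. Some genes have several windows, and by gene a GC box was found for 14 of the 24. The AP-1 motif TGANTCA was in 3 windows (9.68%), those of ITGA5, LAMA3 and LAMB3, against 7.71% of all windows. The letters GTCACGC, part of the longest PAX9 binding sequence that the study searched, were in 0 of the 31 windows and in 2.52% of all windows, which says only that these letters are not in these windows. Bases that matches share were counted for each match. A match is a description of the letters and not a bound site.

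The 13 genes under the minimum were 10 integrin subunits and 3 laminin chains, and their highest FPKM in either group was 0.691, that of ITGAM in siPAX9. For 12 of the 13 the table's status column marks too few reads for a test. ITGA8 was listed at 0 in both groups, and ITGAL and LAMC3 were listed at 0 in siNT. The rest were ITGA4, ITGA7, ITGA9, ITGA11, ITGAX, ITGB3, ITGB7, LAMA2 and LAMA4, and no direction is read from any of these values.

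The partners of these chains were taken from lists of 70 genes, written with earlier results of these data known. Among the 70 are LAMB4, ITGA2B and ITGAD, further chain genes of these families, all under the minimum. A mean FPKM of at least 1 was reached by 52 genes. Of the 52, 5 were at least 2-fold higher in siPAX9 (9.62%, against 6.82% of all symbols) and 6 at least 2-fold lower (11.5%, against 6.90%). Of these, FN1 and PARVB, at 0.588 and 0.877 in siNT, passed the minimum only through siPAX9. TNS1, at 0.492 in siPAX9, passed it only through siNT. All 6 hemidesmosome partners were higher by less than 1.5-fold, with log2 ratios from 0.13 for CD151 to 0.52 for DST; of all symbols past the minimum, 44.7% were higher and 69.6% were within 1.5-fold. PLEC, the plectin that ties β4 to keratin, was at 88.7 in siNT and 110 in siPAX9, and COL17A1, the transmembrane collagen of hemidesmosomes, was at 95.1 and 129.

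The adaptors that join integrins to actin had a median log2 ratio of 0.00 over 18 genes, with 1 at least 2-fold higher and 1 at least 2-fold lower, counts near those that 6.82% and 6.90% of all symbols would give. TLN1, the talin that switches integrins on, was at 26.7 in siNT and 28.1 in siPAX9. PARVB, a parvin of the complex with integrin-linked kinase, was at 0.877 and 3.95, 4.50-fold higher. TNS1, a tensin of older adhesions, was at 3.66 in siNT and 0.492 in siPAX9, a log2 ratio of -2.90. Of the 5 signalling kinases past the minimum, PAK1 was at 6.86 and 3.42, just past 2-fold lower.

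Of the 7 basement membrane partners of laminin past the minimum, 1 was at least 2-fold higher and 2 at least 2-fold lower, and of the 11 other integrin ligands 3 were higher and 1 lower, against 6.82% and 6.90% of all symbols; the rest were within 2-fold. Those within 2-fold include HSPG2, the perlecan core protein, at 19.4 in siNT and 33.3 in siPAX9, and TGFB1 at 28.1 and 17.7. FN1, the fibronectin bound by α5β1, was at 0.588 in siNT and 25.2 in siPAX9, 42.9-fold higher, while ITGA5 and ITGB1 were within 1.5-fold. COL4A1 and COL4A2, the pair of type IV collagen chains found in every basement membrane, were lower in siPAX9, at 7.73 and 2.16 for COL4A1 and at 16.1 and 5.74 for COL4A2. COL4A5 was at 29.0 in siNT and 42.4 in siPAX9, a log2 ratio of 0.55, while its neighbour COL4A6 was at 19.3 and 14.9, a log2 ratio of -0.37. COL7A1, the anchoring fibril collagen that fastens to the hemidesmosomal laminin, was at 1.59 and 6.37, 4.01-fold higher. CTGF was 2.42-fold higher, at 1.54 and 3.72, and CDH1, the E-cadherin that αEβ7 binds, was 2.74-fold higher, at 45.3 and 124. LTBP1, which tethers the latent TGF-β that αV integrins activate, was at 39.5 in siNT and 16.0 in siPAX9. Of the 5 non-integrin laminin receptors past the minimum, only RPSA was past 2-fold, against 6.90% of all symbols at least 2-fold lower. The median log2 ratio of the 5 was -0.06. RPSA, named as a laminin receptor but also a protein of the small ribosomal subunit, was at 600 in siNT and 270 in siPAX9, a log2 ratio of -1.15. DAG1 was at 32.0 in siNT and 49.5 in siPAX9 and SDC4 at 146 and 170, while SDC1 was at 136 and 131 and BCAM at 4.45 and 3.91.

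**Figure D4:**
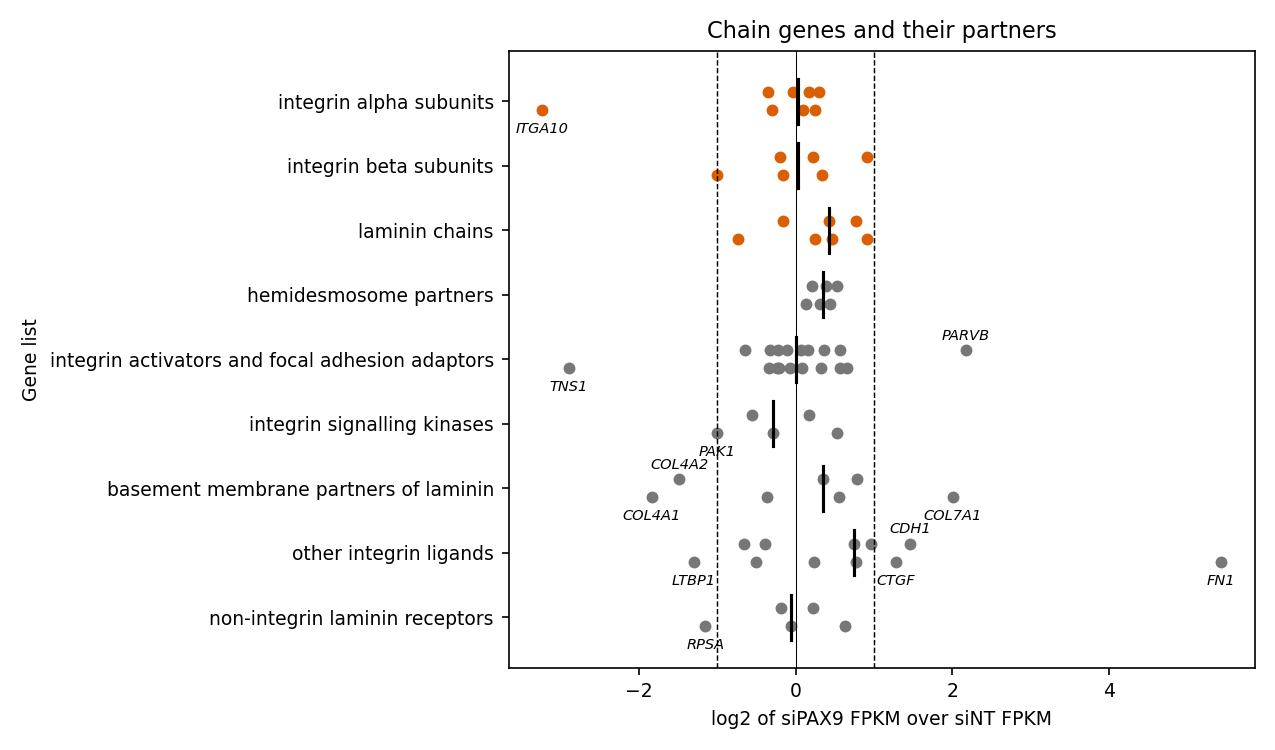
The log2 ratio of siPAX9 over siNT for genes with a mean FPKM of at least 1, by list; orange points are integrin and laminin chain genes, grey points their partners, black bars the median of each list, dashed lines 2-fold, and genes past 2-fold are named. Points of hemidesmosome partners lie between 0.13 and 0.52, whereas the basement membrane partners and other ligands reach from -1.84 for COL4A1 to 5.42 for FN1.

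Markers of other cells moved between the groups beside these values. Of the 11 markers of suprabasal keratinocyte differentiation, 7 had a mean FPKM of at least 1. All 7 were at least 2-fold higher in siPAX9, against 6.82% of all symbols, but this count depends in part on the minimum. IVL, SPRR1A, SPRR3 and KRT13, at 0.0910, 0.532, 0 and 0.0182 in siNT, passed it only through siPAX9, so their direction follows from it. The others past it were KRT10 at 21.0 in siNT and 148 in siPAX9, SPRR1B at 3.18 and 334, and TGM1 at 10.6 and 53.6. The summed FPKM of the 11 markers was 35.4 in siNT and 624 in siPAX9. SPRR3, KRT4 and LOR were listed at 0 in siNT, and KRT4, LOR, KRT1 and FLG were under the minimum. The 6 markers of basal cells had a median log2 ratio of 0.25. The 8 luminal markers summed to 305 and 205, with KRT18 at 212 in siNT and 119 in siPAX9. Among the others KRT8 was at 51.7 and 58.7, GATA3 at 6.19 and 7.56, EPCAM at 34.3 and 16.7, FOXA1 at 1.10 and 2.86, and KIT was listed at 0 in both groups. The 8 fibroblast markers summed to 6.46 and 42.2, mostly DCN, at 5.85 and 37.9. COL1A1, the other fibroblast marker past the minimum, was at 0.454 and 4.13, 9.09-fold higher, while COL3A1 was listed at 0 in both groups. The 6 endothelial markers summed to 3.98 and 2.49, and the pair past the minimum moved in opposite directions, PECAM1 from 2.58 to 0.495 and KDR from 0.798 to 1.94. The part of these markers in the levels of the integrin and laminin genes was not tested.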

How the data were processed

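RNA was harvested from 3 siNT and 3 siPAX9 samples. Libraries of polyadenylated RNA were read from a single end, mapped by the authors with Bowtie 2 onto hg19, and turned into transcript levels by Cufflinks, run in Partek Flow. The deposited FPKM are 1 value per group and locus; how samples were combined and scaled against each other is not given in the sources used here. The study's methods give total reads only as a range over the samples, and the table holds no depth, so the precision of an FPKM is unknown. The authors' own fold changes, test statistics, p-values and q-values are also in the table and were not used.

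Rows were split into symbols at commas, and for each symbol the row with the highest mean FPKM was kept. The log2 of siPAX9 over siNT was computed without a pseudocount, and counts used symbols with a mean FPKM of at least 1 and a fold of at least 2. A row listed at 0 in siNT counts as higher. A gene under 1 in 1 group passes the minimum only through the other group, which fixes its direction. No test was run. Every member past the minimum was named, with partners past 2-fold and PAX9 whatever its value; some genes of the lists are not reported here, and further genes were named after their values were seen. The members and lists were chosen with earlier results of these data known. Locus starts were counted from 1, since start plus 1 was an annotated exon start for 7191 of 22663 rows and the start itself for 726. Exon overlaps used GENCODE release 44 placed on GRCh37, which shares its chromosome coordinates with hg19. The ratio and row choice were tested on simulated data. Alternatives were a pseudocount of 1 or 0.1, centring, no minimum or a minimum of 5, summed or single-symbol rows, and folds of 1.5 and 4. Python 3.11.15, numpy 2.4.6, pandas 2.3.3 and matplotlib 3.10.9 were used.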

Additional observations from a re-analysis of the deposited data

How the results depend on the processing

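No paired analysis was possible because the table holds 1 combined value per group, and for the same reason no replicate could be left out. With no spread between samples, a log2 ratio was taken to have moved when it shifted by at least 0.58, which is 1.5-fold. With no minimum on FPKM, 3 genes were at least 2-fold lower (ITGA10 with ITGA4 and ITGA11) and 4 at least 2-fold higher (ITGA9, ITGAM, ITGB3 and ITGB7), all of the added ones with a mean FPKM under 1, so that no direction is read from them. At a 1.5-fold threshold the counts were 3 lower and 3 higher. Leaving out loci shared by 10 or more rows, a setting chosen after the data were seen, left 0 genes lower, since it leaves out ITGA10. In the other settings these counts stayed at 1 and 0. Of the 21 ratios, only that of ITGA10 with 1 added to each FPKM (-2.45) moved, although with 1 added LAMA1 fell below 1.5-fold higher, at 0.48. Centring on the median of all symbols changed the sign of 1 ratio, that of ITGAV. The median of the beta subunits was -0.16 with a minimum of 5 or with single-symbol rows, and that of the alpha subunits was -0.17 with single-symbol rows, so their signs depend on these choices. With no minimum the beta median was 0.28. The median over all families, 0.18 for the 21 genes, was 0.03 with single-symbol rows and 0.09 with a minimum of 5, and at most 0.25 in the other settings. The laminin median stayed between 0.34 and 0.49.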

Other observations

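Genes whose proteins accompany integrins in the membrane or bind their tails were also looked up, chosen after the data were seen. The tetraspanins CD9 and CD81, which sit beside integrins in the membrane, were at 69.3 and 98.5 FPKM in siNT and at 79.9 and 98.0 in siPAX9. CD47, an integrin-associated receptor for thrombospondin, was at 16.2 in siNT and 12.0 in siPAX9. ITGB1BP1, which binds the β1 tail, was at 22.3 and 20.7. ITGB3BP, first named for binding the β3 tail and also a centromere protein, was at 13.3 in siNT and 6.76 in siPAX9, a log2 ratio of -0.98. The pseudogene LAMB2P1, a copy of part of LAMB2, was at 0.440 and 0.355, and LAMA5-AS1, on the opposite strand of LAMA5, was at 1.08 and 2.08, beside 35.6 and 48.8 for LAMA5.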
